A study of Mus musculus with 10 samples.

Results

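The 10 genes described here encode enzymes of threonine, glycine and methionine metabolism. They were taken by name: Tdh, Gcat, Gldc, Amt, Mat2a, Mat2b, Ahcy, Mtr, Mtrr and Mtap, 10 of the 20206 genes in the table and 10 of the 14354 genes tested. RNA was sequenced from 10 embryonic stem cell (ESC) lines of wild-type C57Bl/6 mice, each labelled male and each derived from a blastocyst. Mothers, aged 7 to 9 weeks at mating, received either a low protein diet (LPD, 9% casein) or a normal protein diet (NPD, 18% casein) of the same energy content from mating until embryonic day 3.5, so that the cells met the diet only before derivation. The lines are LPD 1, 4, 6, 20 and 40 and NPD 8, 15, 21, 36 and 51. Lines were derived on feeder cells, but the medium for the RNA samples held no fibroblasts, and according to the methods each line came from its own mother. The comparison asks whether maternal diet left a difference in the expression of these enzymes in established lines.

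Mouse ES cells are known for an unusual dependence on threonine. Tdh, threonine dehydrogenase, oxidises threonine in the mitochondria, and Gcat splits the product into glycine and acetyl-CoA. Gldc and Amt are subunits of the glycine cleavage system, which passes a carbon of glycine to folate. Mtr, methionine synthase, uses that carbon to make methionine from homocysteine, and Mtrr keeps its cobalamin cofactor active. Mat2a, with its regulatory partner Mat2b, turns methionine into S-adenosylmethionine (SAM), the methyl donor of the cell. Ahcy removes the product left after methylation, and Mtap returns the sulphur of methylthioadenosine, a product of polyamine synthesis, towards methionine.

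The deposited value is a normalised estimated count per gene and line. The lines differed in depth, with 20411428 to 23177825 read equivalents in the NPD lines against 5847130 in LPD 4, 11249853 in LPD 40 and 12348055 in LPD 6. LPD 1 and LPD 20 held 21896946 and 24144481. The ES cell markers were present in every line, with a mean of 24042 for Pou5f1, and all 10 of them were above 0 in each line. The 4 Y-linked genes checked summed to 701 in LPD 4 and 152 in NPD 15, against 3706 to 4305 in the other lines, so these libraries stood apart from their label of male. The 8 feeder fibroblast markers summed to between 352 and 3369 in the LPD lines and between 437 and 5729 in the NPD lines. They were highest in NPD 15, LPD 6 and NPD 8. Of the 8, Col1a1, Col1a2, Col3a1, Fbn1 and Thy1 were above 0 in every line, with Col1a1 from 131 to 2709. Lum, Dcn and Postn were at 0 in some lines, Lum in 7 of them. The trophoblast list summed to 10073 in LPD 6 and to between 3008 and 6064 in the other lines. Krt8 at 4577 and Krt18 at 3053 made up most of that sum, and Cdx2, Eomes, Elf5 and Tfap2c were each higher in another line than in LPD 6. In bulk RNA, fewer cells of a type and less RNA per cell cannot be told apart. The primed epiblast list had 2 of 5 genes lower in the LPD lines at an unadjusted p under 0.05, against 2.18% of all genes tested, with an adjusted p of 0.952 for both in limma, and the primitive endoderm list had none of 6. All 6 primitive endoderm genes were higher in the LPD lines without reaching that p, with a median log2 fold change of 0.44. Their sums ran from 346 in NPD 15 to 2849 in LPD 40.

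Sequence upstream of the genes is shown first because it is a feature they share that their choice did not use. RefSeq gives the 250 bases before the start of 9 of the 10 genes on GRCm38.p6, and Tdh was not matched. A gene was counted for a sequence if it lay before any of its listed starts, and Mtrr had alternative starts. The shares given beside these counts are of promoters, not of genes. The sequence CCAAT was present on either strand in 8 of these 9 genes, all but Gcat, against 33.9% of all 32851 promoters in the table and 35.8% of the 6300 promoters of genes with a mean of at least 500. The windows below are shown for 6 of these genes and run 5′ to 3′ on the strand of each gene, with CCAAT, or ATTGG where it lies on the other strand, in capitals.
Gldc (chr19:30175488-30175522, minus strand): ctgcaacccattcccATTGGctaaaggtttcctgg
Amt (chr9:108296680-108296714, plus strand): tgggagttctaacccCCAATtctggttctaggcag
Mat2a (chr6:72439626-72439660, minus strand): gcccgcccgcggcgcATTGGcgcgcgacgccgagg
Ahcy (chr2:155074715-155074747, minus strand): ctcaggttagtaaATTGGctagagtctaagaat
Mtr (chr13:12258245-12258279, minus strand): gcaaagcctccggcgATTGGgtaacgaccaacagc
Mtr (chr13:12258195-12258229, minus strand): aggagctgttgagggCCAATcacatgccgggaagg
Mtrr (chr13:68582179-68582213, minus strand): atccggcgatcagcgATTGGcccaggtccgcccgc
Mat2b and Mtap, whose matches lie inside the longer gene models of GENCODE, are not printed. Its place differed between genes, from 17 bases before the start in Mtap to 237 in Ahcy, and Mtr held it on both strands, at 151 and 101. The GC box GGGCGG was found in 8 of the 9 genes, all but Mtap, against 32.7% of all promoters and 62.5% of those of genes with a mean of at least 500. Mat2a was the single gene of the 9 with TATAAA, which 12.4% of all promoters hold and 5.52% of those at the higher mean. A stretch of 148 bases just before its start is printed because it holds all 3 kinds of motif, in capitals, with the outermost GC boxes overlapping each other.
Mat2a (chr6:72439559-72439706, minus strand): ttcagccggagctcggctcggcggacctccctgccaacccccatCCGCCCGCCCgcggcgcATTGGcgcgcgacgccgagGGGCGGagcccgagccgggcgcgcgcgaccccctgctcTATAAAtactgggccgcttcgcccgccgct
The E-box CACGTG was found for none of the 9 genes, against 6.02% of all promoters. A match of letters is a description only.

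Expressed per kilobase of exon, the 10 genes spanned a range from 2049 ± 183 for Ahcy to 150 ± 22.8 for Mtrr (mean ± SD over the 10 lines, normalised estimated counts per kb). Tdh followed Ahcy at 1226 ± 224, and Ahcy was higher than Tdh in 10 of 10 lines although their ranges over the lines overlapped. Mat2a at 662 ± 130, Gldc at 614 ± 107 and Amt at 590 ± 50.2 formed a middle group in which neighbours could not be ordered: Mat2a exceeded Gldc in 6 of 10 lines and Gldc exceeded Amt in 6 of 10. The place of Mat2a is uncertain, because another identifier holds the same values, and if reads were split between them the sum would be 1325 ± 260 per kb, beside 1226 for Tdh. Below them stood Mtap at 377 ± 34.6, whose values did not reach those of Amt in any line. Gcat followed at 283 ± 56.0, Mat2b at 248 ± 22.1 and Mtr at 198 ± 18.7. Each of these 3 was lower than the gene before it in at least 8 of 10 lines, with overlapping ranges.

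**Figure D1:**
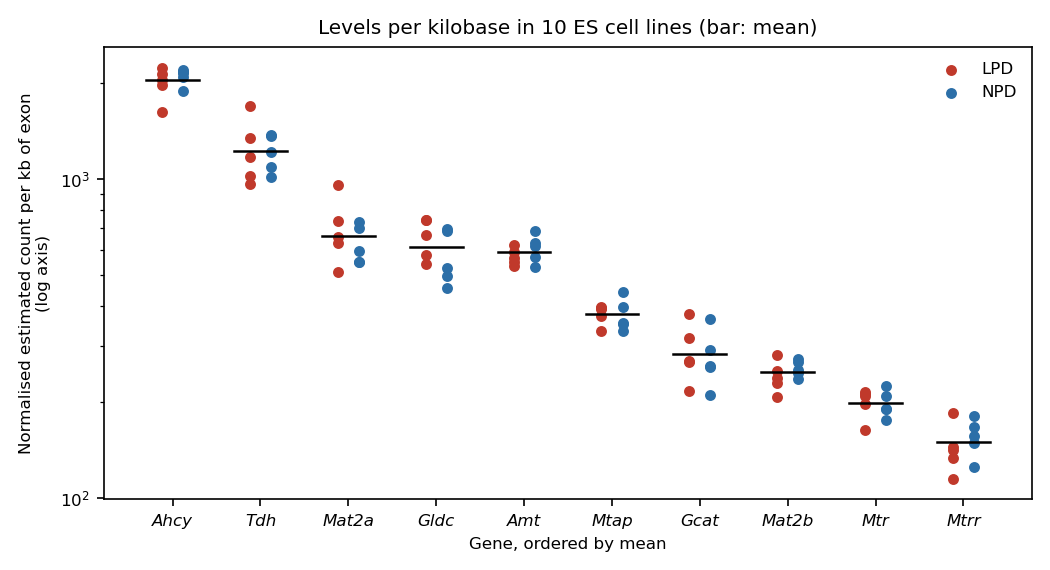
Normalised estimated count per kilobase of exon, on a log axis, of the 10 genes in each of 10 ESC lines (red LPD, blue NPD, bar the mean over all lines). Ahcy at 2049 and Tdh at 1226 stand highest, Mat2a, Gldc and Amt overlap with means from 590 to 662, and Mtrr is lowest at 150.

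No difference between the diets was detected for any of the 10 genes. The test was limma's linear model fitted over all genes on log2(value + 1), and every log2 fold change is LPD against NPD on that scale. In it 0 of 10 passed an adjusted p of 0.1, as did 0 of the 14354 genes tested (0%), and 0 of 10 passed an unadjusted p of 0.05, against 5.02% of all genes tested. The LPD and NPD lines were free of overlap for none of the 10, against 1.02% of all genes. Of the 10, 6 were higher and 4 lower in the LPD lines, and the median log2 fold change was 0.01 over the 10 and 0.00 over all genes. The 95% intervals of the difference all lay between -0.41 and 0.50 on the log2 scale. Each held 0, and a difference inside a gene's own interval is not excluded. The adjusted p of the 10 ran from 0.994 to 0.998 and the exact permutation p from 0.230 to 0.992, where the design allows a smallest p of 0.00794. With LPD 4 and NPD 15 left out, 0 of 10 again passed the unadjusted or the adjusted threshold.

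**Figure D2:**
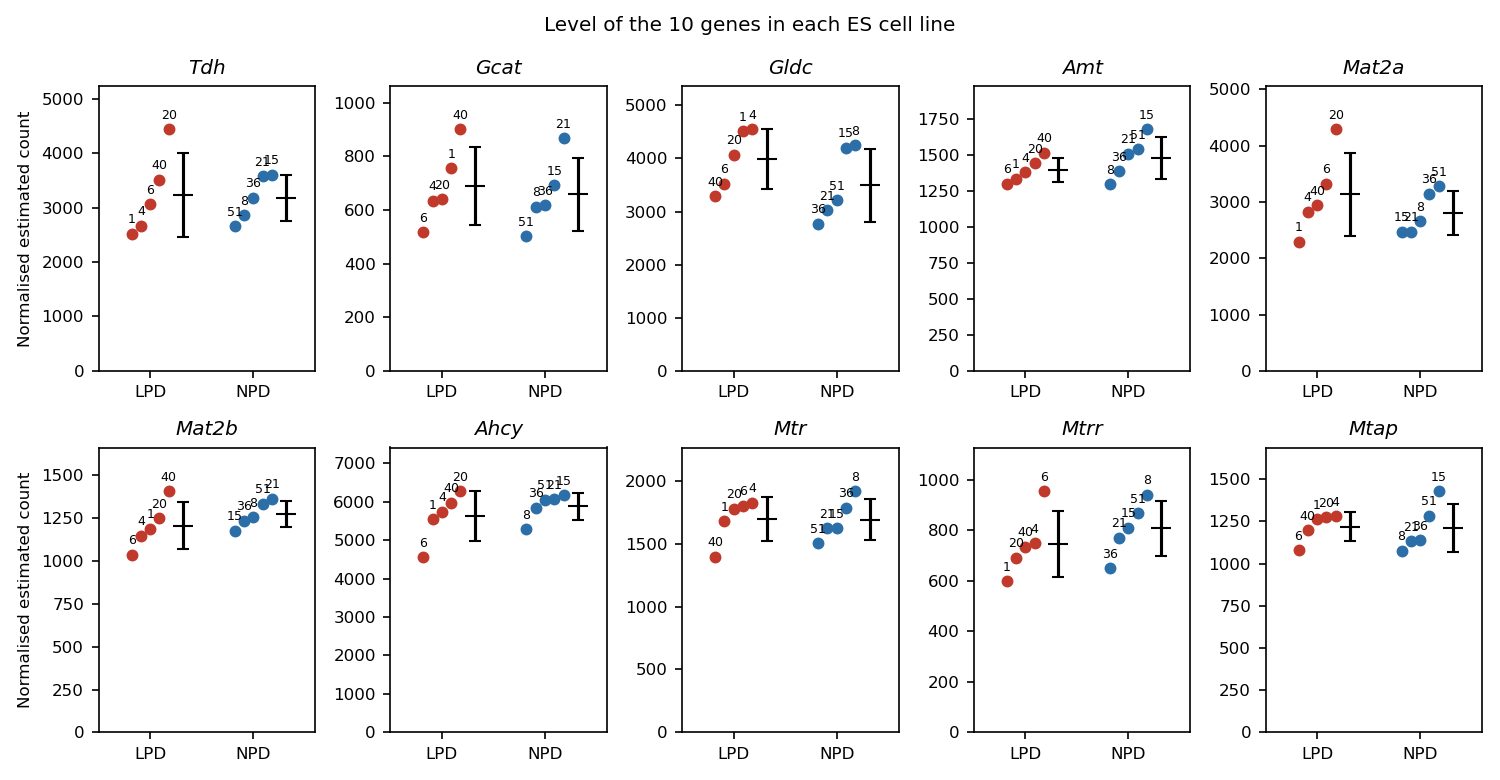
Normalised estimated count of each gene in each line, labelled with the line number, with mean and SD to the right of each diet (5 lines each). The 2 diets overlap for every gene, and single lines such as LPD 20 for Tdh and Mat2a stand above the rest.

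Threonine breakdown was led by Tdh (ENSMUSG00000021953, chr14:63492347-63509092, GRCm38), for which the values were 2518, 2669, 3060, 4434 and 3509 in LPD 1, 4, 6, 20 and 40. They were 2861, 3602, 3575, 3179 and 2654 in NPD 8, 15, 21, 36 and 51. LPD 20 was the highest line and LPD 1 the lowest, and the NPD lines lay between them. The means were 3238 ± 771 and 3174 ± 422 (SD, n = 5 lines each). The log2 fold change was 0.01 ± 0.15 (SE), a fold of 1.01 with a 95% interval of 0.805 to 1.26. Without LPD 20 it was -0.11, and without LPD 1 it was 0.09, so its sign followed single lines.

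Gcat (ENSMUSG00000006378, chr15:79030874-79038353), which completes the step to glycine, read 755, 635, 516, 640 and 900 in LPD 1, 4, 6, 20 and 40 and 612, 693, 868, 617 and 501 in the NPD lines in the order given. LPD 40 and NPD 21 were high and NPD 51 and LPD 6 low, with both diets at each end. The log2 fold change was 0.06 ± 0.17 (SE, 95% interval -0.30 to 0.43). A second identifier, ENSMUSG00000116378 at chr15:79030901-79042531, carries the name Gcat too and overlaps the first. It was at 0 in LPD 1 and LPD 40, the lines highest for the first identifier among the LPD lines, and at 143 in LPD 6, the lowest of them. With both summed the LPD lines averaged 735 ± 101 and the NPD lines 702 ± 139, a log2 fold change of 0.08 ± 0.14. Shared reads cannot be assigned to 1 of these identifiers.

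In the glycine cleavage system, Gldc (ENSMUSG00000024827, chr19:30098447-30175429), its decarboxylase, had the largest difference of the 10. Its values were 4518, 4547, 3522, 4071 and 3289 in LPD 1, 4, 6, 20 and 40 and 4253, 4201, 3027, 2775 and 3213 in NPD 8, 15, 21, 36 and 51. NPD 21, 36 and 51 lay below every LPD line, while NPD 8 and 15 lay among the higher LPD lines. The means were 3989 ± 571 and 3494 ± 687 (SD, n = 5 each), a log2 fold change of 0.20 ± 0.14 (SE) and a fold of 1.15 with an interval of 0.933 to 1.42 (exact permutation p = 0.230). The fibroblast markers were highest in NPD 15, LPD 6 and NPD 8, and without these 3 lines the log2 fold change of Gldc was 0.44 (limma, unadjusted p = 0.00674, adjusted p = 0.999), where 4.83% of all genes passed an unadjusted p of 0.05. The same 3 lines had the lowest sums of the primitive endoderm markers, at 346 in NPD 15, 530 in LPD 6 and 839 in NPD 8. In the other lines these sums ran from 1464 to 2849. NPD 8 and NPD 15 were the highest NPD lines for Gldc, and LPD 6 lay below the LPD mean. Leaving these lines out therefore had to widen the difference. That choice of lines was made after the data were seen, and the part of either set of markers in the result was not tested.

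Amt (ENSMUSG00000032607, chr9:108296853-108302302), the aminomethyltransferase of the same system, was the steadiest gene, with 1335, 1378, 1298, 1443 and 1514 in the LPD lines and 1294, 1676, 1506, 1384 and 1540 in the NPD lines in the same order. The highest and lowest lines, NPD 15 and NPD 8, differed by 1.29 times and were of 1 diet. The log2 fold change was -0.08 ± 0.09 (SE, 95% interval -0.28 to 0.11). The ratio of Gldc to Amt within a line was 2.88 ± 0.490 in the LPD and 2.38 ± 0.548 in the NPD lines, a log2 difference of 0.28 (exact permutation p = 0.135, 0.581 after adjustment over the 6 ratios). NPD 8 held the highest ratio of the NPD lines, 3.29, so leaving it out had to widen the difference. Without NPD 8 that difference was 0.41 (exact permutation p = 0.0397, not adjusted). With any other single line left out, the exact permutation p ran from 0.0556 to 0.246. Of the other subunits, Gcsh, the lipoyl carrier protein, had a log2 fold change of 0.03 ± 0.12 (SE, 95% interval -0.23 to 0.29). Dld, the shared dihydrolipoyl dehydrogenase, had 0.12 ± 0.08 (SE, 95% interval -0.04 to 0.29, exact permutation p = 0.0714, limma unadjusted p = 0.132).

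Among the genes that make SAM, Mat2a (ENSMUSG00000053907, chr6:72432799-72439558), the catalytic subunit whose upstream sequence is printed above, varied most between its highest and lowest lines. It read 2293, 2828, 3325, 4289 and 2948 in LPD 1, 4, 6, 20 and 40 and 2660, 2469, 2471, 3146 and 3282 in the NPD lines, a range of 1.87 times. LPD 20 was the highest line and LPD 1 the lowest, the same lines as for Tdh. The log2 fold change was 0.14 ± 0.15 (SE), a fold of 1.10 with an interval of 0.880 to 1.38. Without LPD 20 it was 0.02 and without LPD 1 it was 0.25. The identifier ENSMUSG00000104463, which has no name in the annotation used, held values identical to those of Mat2a in all 10 lines, so reads cannot be assigned to 1 of them.

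Mat2b (ENSMUSG00000042032, chr11:40679314-40695203), the regulatory subunit, stayed between 1035 in LPD 6 and 1407 in LPD 40, with the NPD lines from 1176 to 1363 inside that range. Its log2 fold change was -0.08 ± 0.09 (SE, 95% interval -0.29 to 0.12). The ratio of Mat2a to Mat2b was 2.63 ± 0.668 in the LPD and 2.21 ± 0.299 in the NPD lines (exact permutation p = 0.278). Ahcy (ENSMUSG00000027597, chr2:155059310-155074497) read 5544, 5737, 4560, 6276 and 5971 in the LPD lines and 5285, 6160, 6057, 5845 and 6047 in the NPD lines. LPD 6 was the lowest line, and without it the log2 fold change of -0.07 ± 0.09 (SE) became 0.00. LPD 6 was also the line with the highest Krt8 and Krt18, and their part in the result was not tested.

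Methionine synthase, Mtr (ENSMUSG00000021311, chr13:12182712-12258113), was level between the diets, with means of 1695 ± 176 and 1689 ± 162 (SD, n = 5 each). LPD 40 was lowest at 1396 and NPD 8 highest at 1918. The log2 fold change was 0.00 ± 0.10 (SE), with an interval of -0.21 to 0.22. Its reductase Mtrr (ENSMUSG00000034617, chr13:68560780-68582149) read 598, 750, 956, 692 and 735 in LPD 1, 4, 6, 20 and 40 and 942, 811, 771, 651 and 868 in the NPD lines. LPD 6 and NPD 8 were the highest lines and LPD 1 the lowest. The log2 fold change was -0.12 ± 0.13 (SE, 95% interval -0.41 to 0.17), the lowest bound among the 10. In the salvage pathway, Mtap (ENSMUSG00000062937, chr4:89137122-89181081) ranged from 1077 in NPD 8 to 1430 in NPD 15, so that the NPD lines held both extremes. Its log2 fold change was 0.01 ± 0.10 (SE).

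**Figure D3:**
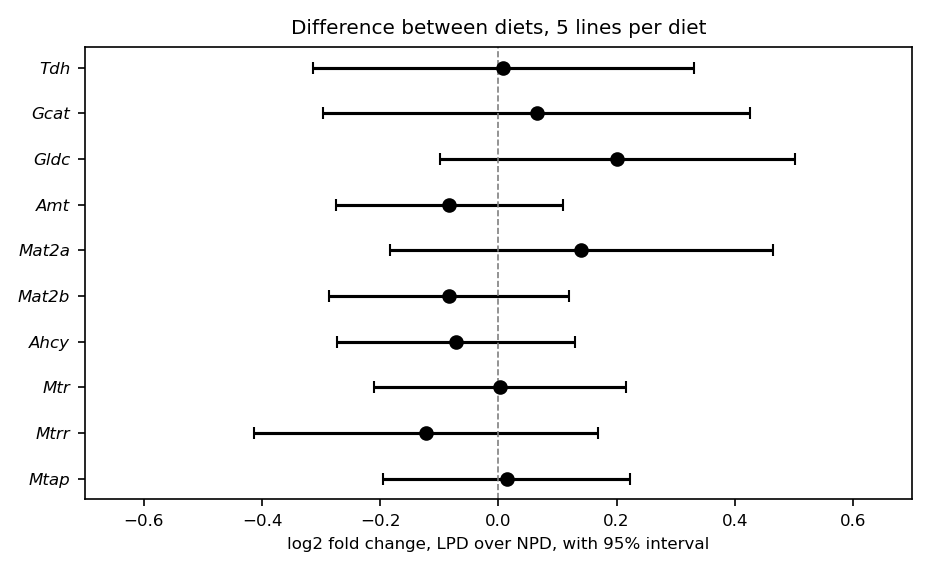
Log2 fold change of LPD over NPD for the 10 genes with 95% intervals from limma (5 lines per diet). Each interval holds 0, with Gldc at 0.20 the largest value and Mtrr at -0.12 the smallest.

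No difference was detected in the remaining ratios within a line. The log2 difference between diets was 0.21 for Mat2a to Ahcy (exact permutation p = 0.310), 0.13 for Mtr to Mtrr (exact permutation p = 0.437), -0.19 for Tdh to Gldc (exact permutation p = 0.484) and -0.06 for Tdh to Gcat (exact permutation p = 0.810). The Tdh to Gcat ratio was more spread in the LPD lines, from 3.34 to 6.93, than in the NPD lines, from 4.12 to 5.29; that difference in spread was not tested.

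The genes fell into a more and a less variable set. The SD of log2 values within diets was 0.29 for Gcat, 0.27 for Mat2a and for Tdh, 0.25 for Gldc and 0.22 for Mtrr. It was 0.15 for Mtr, 0.14 for Ahcy and for Mtap, 0.13 for Mat2b and 0.12 for Amt. Among the 6258 genes that averaged 500 or more these stood at percentiles from 85.4 for Gcat to 14.8 for Amt. The place of Gcat is uncertain, because its spread is that of 1 of 2 overlapping identifiers. With both summed the SE of its log2 fold change was 0.14 in place of 0.17. The SD of the LPD values was then 101 in place of 145. Tdh, Gcat, Gldc, Mat2a and Mtrr thus varied more between lines than the median gene averaging 500 or more, and Amt, Mat2b, Mtap, Ahcy and Mtr less. Among all genes tested, Gcat stood at percentile 55.0, Mat2a at 50.8, Tdh at 50.3, Gldc at 45.6 and Mtrr at 39.8. The less variable genes ran there from 7.29 for Amt to 16.1 for Mtr. No gene had a line that stood apart by Dixon's test in either diet.

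**Figure D4:**
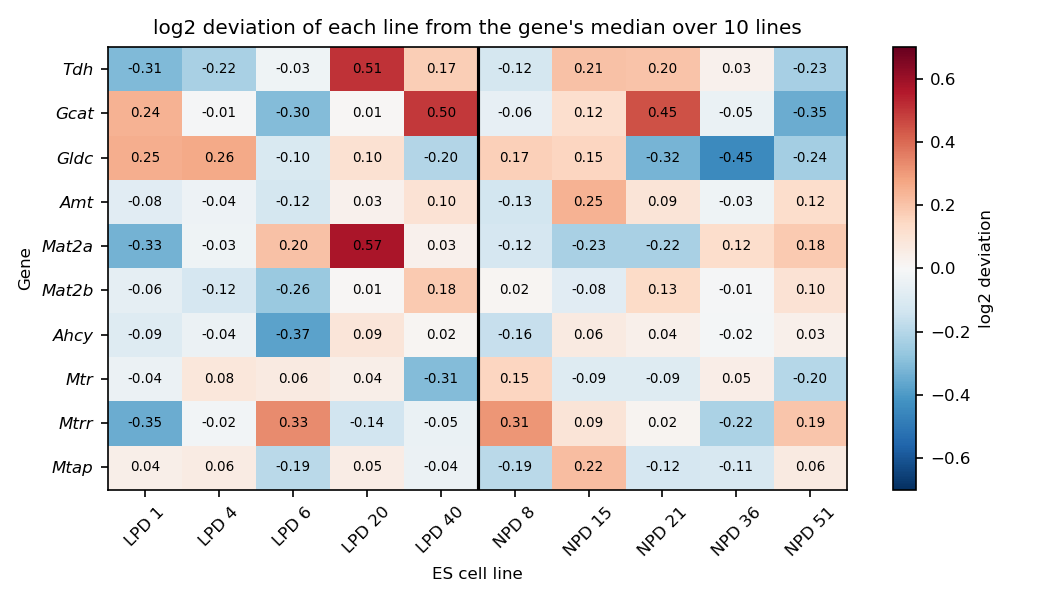
Log2 deviation of each line from the median of the 10 lines for each gene (columns lines, LPD left of the black bar; red above the median, blue below). LPD 20 is highest for Tdh and Mat2a, at 0.51 and 0.57, while NPD 36 is lowest for Gldc at -0.45 and LPD 6 for Ahcy at -0.37.

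The genes did not rise and fall as a block across lines. Of the 45 pairs, 22 had a positive and 23 a negative Pearson's r, with a median of -0.02, and after Benjamini-Hochberg adjustment the smallest p was 0.354. Amt and Ahcy had the highest correlation (r = 0.74, permutation p = 0.0115; rho = 0.83, permutation p = 0.00449, 0.132 adjusted), with r of 0.77 after the 2 lines farthest in Amt were left out. Within the diets r was 0.80 over the LPD lines and 0.90 over the NPD lines. Amt and Mtr had the most negative value (r = -0.69, permutation p = 0.0276; rho = -0.82, permutation p = 0.00587), which was -0.75 without those lines. Amt with Mtap (r = 0.68) fell to 0.28 and Mat2b with Ahcy (r = 0.68) to 0.25 without 2 lines each, so these rested on them. These correlations are over 10 lines that share their scaling factors.

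For each gene the closest patterns among 10445 other genes, all averaging 100 or more, were found by Pearson's r over the 10 lines. Tdh was most like Eef1akmt4 (r = 0.87) and Nrf1 (0.85), and Gcat most like Cep162 (0.92). Gldc was most like Wscd1 (0.96) and Tmem38b (0.95), and Amt most like Ftsj1 (0.94) and Slc25a5 (0.93). Mat2a, after the identical identifier, was most like Epop and Myc (both 0.95). Mat2b was nearest to Gemin6 (0.95), Ahcy to Stip1 (0.96), Mtr to Rapgef6 (0.96), Mtrr to Gipc2 (0.89) and Mtap to Tsr2 (0.91). Each value is among the 3 highest of 10445 and is given as a description. In NPD 15, the highest line for Amt and Mtap, X chromosome genes had a median log2 deviation of 0.49 from their medians over the lines. In the other lines that median ran from -0.06 to 0.03. Matches with genes of the X chromosome could rest on NPD 15, which was not tested. The genes next to each of the 10 on the chromosome had r from -0.63, for Dkk1 with Gldc, to 0.54, for H1f0 with Gcat. Mtrr and its neighbour Fastkd3 (chr13:68582234-68592338) lie head to head, with r of 0.06.

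The neighbouring pathways were described with lists of 72 genes, of which 71 were in the table and 64 were tested. At an unadjusted p under 0.05, 6 of these 64 were higher in the LPD lines, against 2.84% of all genes tested, and 1 was lower, against 2.18%, and none passed adjustment. The serine and folate list held 4 of the 6. Psph, the last enzyme of serine synthesis, read 1466, 1787, 1402, 1286 and 1523 in LPD 1, 4, 6, 20 and 40 and 1303, 1139, 1182, 1004 and 1026 in the NPD lines. Its log2 fold change was 0.40 ± 0.11 (SE, limma unadjusted p = 0.00256, adjusted p = 0.551). Mthfd2, a mitochondrial folate enzyme, had 0.39 ± 0.11 (adjusted p = 0.665). Phgdh, the first enzyme of serine synthesis, had 0.32 ± 0.11 (adjusted p = 0.839), with LPD lines from 2600 to 2880 all above the NPD lines, from 1736 to 2593. Psat1, the enzyme between them, had 0.24 ± 0.11 (adjusted p = 0.987). The median of the 18 tested genes of the list was 0.03, with 11 higher and 7 lower.

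In the other lists, Slc3a2, the heavy chain of the large neutral amino acid transporter, had a log2 fold change of 0.32 ± 0.12 and Pcmt1, a protein repair methyltransferase, 0.30 ± 0.12 (SE, adjusted p = 0.921 and 0.952). Mmachc, which processes cobalamin, had -0.31 ± 0.12 (adjusted p = 0.952). Its LPD lines, at 265, 230, 251, 311 and 321, all lay below the NPD lines, at 328, 363, 333, 327 and 343. Diets free of overlap, as for Mmachc and Phgdh among the 64 tested list genes, were found for 1.02% of all genes tested. Of the 13 tested genes of the methionine cycle, cobalamin and homocysteine list 9 were higher and 4 lower, with a median of 0.09. The 10 genes of methionine salvage and polyamine synthesis had 3 higher and 7 lower, with a median of -0.03 and none under an unadjusted p of 0.05, and Odc1 read 16909 ± 2411 and 17094 ± 1183 (SD, n = 5 each). SAM transport and control had 4 higher and 2 lower of 6, threonine, serine and glycine breakdown 3 and 3 of 6, and the methyltransferases 4 and 5 of 9. Mettl16, which acts on Mat2a mRNA, had -0.15 ± 0.13 (SE).

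**Figure D5:**
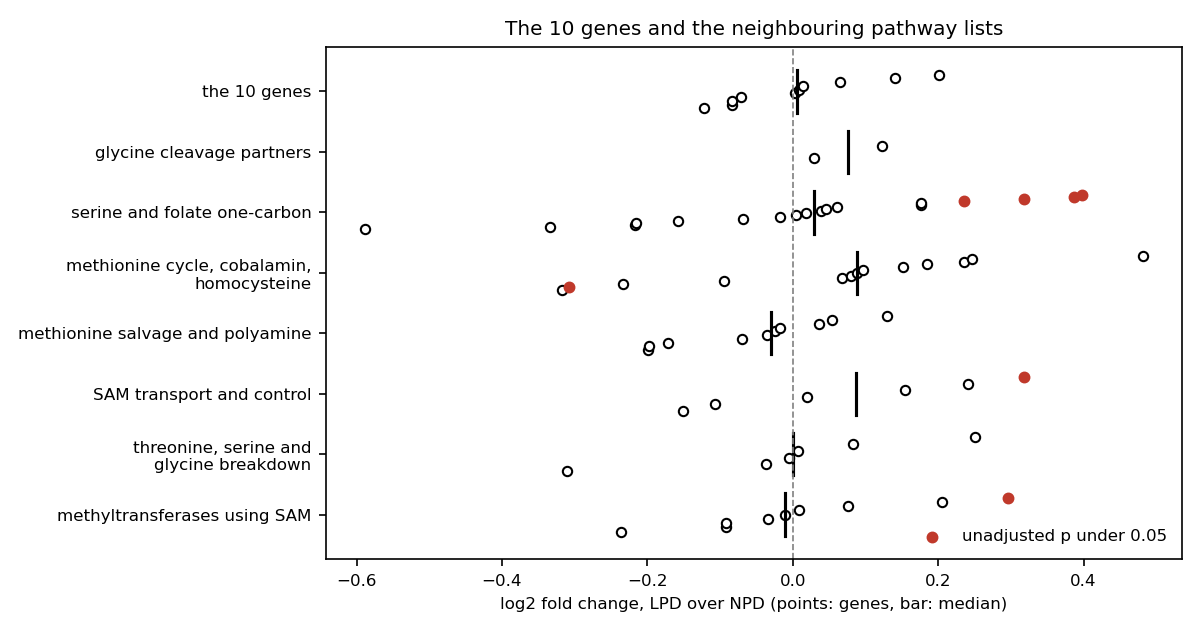
Log2 fold change of LPD over NPD of the 10 genes and of the 64 tested genes of 7 neighbouring lists (points genes, bars medians, red points an unadjusted p under 0.05). The 10 genes lie between -0.12 and 0.20, and 4 red points fall in the serine and folate list.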

How the data were processed

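RNA sequencing of 10 mouse ESC lines, 5 LPD and 5 NPD, was analysed, each line as 1 replicate, and p-values measure the spread between lines. Per the submitters' processing notes and methods, reads were trimmed with cutadapt, transcripts were quantified with Salmon on GRCm38 and tested with sleuth 0.30.0. The authors deposited a normalised signal per gene, an estimated count whose file name credits DESeq2; how transcripts were summed, and whether strand was used, is not given in the sources used here. Genes were matched by identifier to GENCODE M21 (GRCm38) for 19918 of 20206. Depth was estimated from the low values of genes with 1 annotated transcript (tolerance 0.15), as read equivalents. No interval for counting error is given because whole reads were not used. Levels per kb used the union of annotated exons.

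Values were transformed as log2(value + 1), so fold changes of low genes are understated. Genes with a mean of at least 10 entered the linear models of limma (3.58.1, R 4.3.3; mean-variance trend, no covariate, Benjamini-Hochberg adjustment, thresholds 0.1 and unadjusted 0.05). Exact two-sided permutation over 252 assignments was used for single genes and 6 ratios, and 100000 permutations for the 45 correlations. The fit was tested on simulated data with planted changes larger than any seen among the 10 genes. That test therefore does not show whether differences of their size would be found. Other steps ran in Python (3.11.15), with scipy 1.17.1 for correlations, matplotlib 3.10.9 for plots, and pandas 2.3.3 and numpy 2.4.6. Where 2 identifiers carried a name, the one with the higher mean was taken. Named were the 10 genes, up to 3 genes of each pathway list with the smallest p, up to 3 genes most like each gene, the nearest tested neighbours and the markers with the highest values; of these the text gives those it needs, and Psat1, Odc1, Mettl16 and the fibroblast and trophoblast markers were named after their values were seen. The genes and lists were chosen with earlier results of these data known. Alternatives were other pseudocounts (0.5 and 10), filters, scalings, limma settings, depth as a covariate and lines left out.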

Additional observations from a re-analysis of the deposited data

How the results depend on the processing

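No paired analysis was possible because, according to the methods, diets were assigned to mothers and each line came from its own mother. Under all 12 alternatives other than leaving out 1 line, 0 of the 10 genes passed an adjusted p of 0.1, and likewise with each line left out. Rescaling to the same total and quantile normalization each left 3 of the 10 genes higher in LPD instead of 6 (3 to 6 with 1 line left out, 3 without LPD 20 or NPD 51). Rescaling moved the median of all genes from 0.0020 to -0.032 and quantile normalization to -0.013, and the signs that turned were of values near 0. With rescaling to the same total Tdh was -0.026, Mtr -0.031 and Mtap -0.020 on the log2 scale, and with quantile normalization -0.019, -0.021 and -0.0011. Tdh was -0.017 with array weights. Mtr was -0.00041 with depth as a covariate and -0.038 without LPD 4 and NPD 15, which also gave 0.0064 for the ratio of Tdh to Gcat. 
Without LPD 6, NPD 8 and NPD 15, chosen after seeing the data, 1 of the 10 genes (Gldc) passed an unadjusted p of 0.05 (4.83% of all genes did, and its adjusted p was 0.999), and 1 gene of all tested passed an adjusted p of 0.1, as 1 did with array weights. With 1 line left out that count ran from 0 to 40, with 40 without LPD 40. Leaving out 1 line moved the log2 fold change over these ranges: Tdh -0.11 to 0.091, Gcat -0.038 to 0.17, Gldc 0.12 to 0.28, Mat2a 0.02 to 0.25, Amt -0.13 to -0.037, Mat2b -0.14 to -0.031, Ahcy -0.11 to 0.0014, Mtrr -0.22 to -0.046, Mtr -0.038 to 0.071 and Mtap -0.027 to 0.076. The ratio of Tdh to Gcat moved from -0.20 to 0.066, that of Gldc to Amt from 0.22 to 0.41, Mat2a to Mat2b 0.12 to 0.33, Mat2a to Ahcy 0.11 to 0.31, Mtr to Mtrr 0.052 to 0.22, Tdh to Gldc -0.30 to -0.062, and the median r of the 45 pairs from -0.040 to 0.092. Both Gcat identifiers summed, also chosen after seeing the data, gave 0.08. With 5 lines a diet, a difference inside the interval given for a gene is not excluded for that gene. LPD 4, 6 and 40 were sequenced less deeply. With all lines the median within-diet SD of the 10 genes was 0.19. It was 0.20 without LPD 4, 0.17 without LPD 6 and 0.19 without LPD 40.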
